A study of Homo sapiens with 2 samples.

Results

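STAT3, JAK2, SOCS1 and PIM3 are 4 genes of JAK-STAT signalling, the route by which interleukin-2 and related cytokines reach the nucleus of a lymphocyte. They were taken by their symbols in the platform annotation, and make up 4 of the 14884 genes named there. All 4 were matched, each by 1 probe set, and all 4 passed the signal filter described below. Their expression was measured in SNK6, an established human NK/T-cell lymphoma line that carries Epstein-Barr virus, after 72 h of treatment. One group received romidepsin, which blocks class I histone deacetylases (1 array), and the other received romidepsin together with sildenafil, a phosphodiesterase type 5 inhibitor (1 array). Both groups therefore carried romidepsin, and both were grown with 500 U/ml of interleukin-2 and 10% serum, so a ligand of the pathway was in the culture medium. The drug doses are not known here, cells without drug or with sildenafil alone were not analysed here, and the cells of both arrays come from 1 line. With 1 array per group, no value below has a replicate error, no difference was tested, and any array or culture effect and the treatment cannot be told apart.

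In this pathway a cytokine brings its receptor chains together, and the Janus kinases (JAKs) bound to them phosphorylate each other and the receptor. STAT proteins dock on the receptor, are phosphorylated in turn, pair, and enter the nucleus to switch on genes. Among these genes are those of SOCS proteins, which block the kinases and close a feedback loop, and those of PIM kinases, which promote survival and growth. In NK/T-cell lymphoma the pathway is known for activating mutations of JAK and STAT genes. The array reads transcripts and not phosphorylation, so it does not measure whether the pathway was active.

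Each of the 4 genes had similar signals on both arrays, and none was 1.5-fold apart. SOCS1 (1.19-fold) and JAK2 (1.18-fold) were lower with sildenafil, PIM3 (1.19-fold) was higher, and STAT3 (1.04-fold) was nearly level. Among all 10081 named genes past the filter, 1.99% were at least 1.5-fold higher or lower. A gene passed when its brighter array reached a log2 signal of 3.91, the median of all values. Differences below are log2 signals with sildenafil minus those without, so 0.58 stands for 1.5-fold. Over all genes past the filter the median difference was -0.01.

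**Figure D1:**
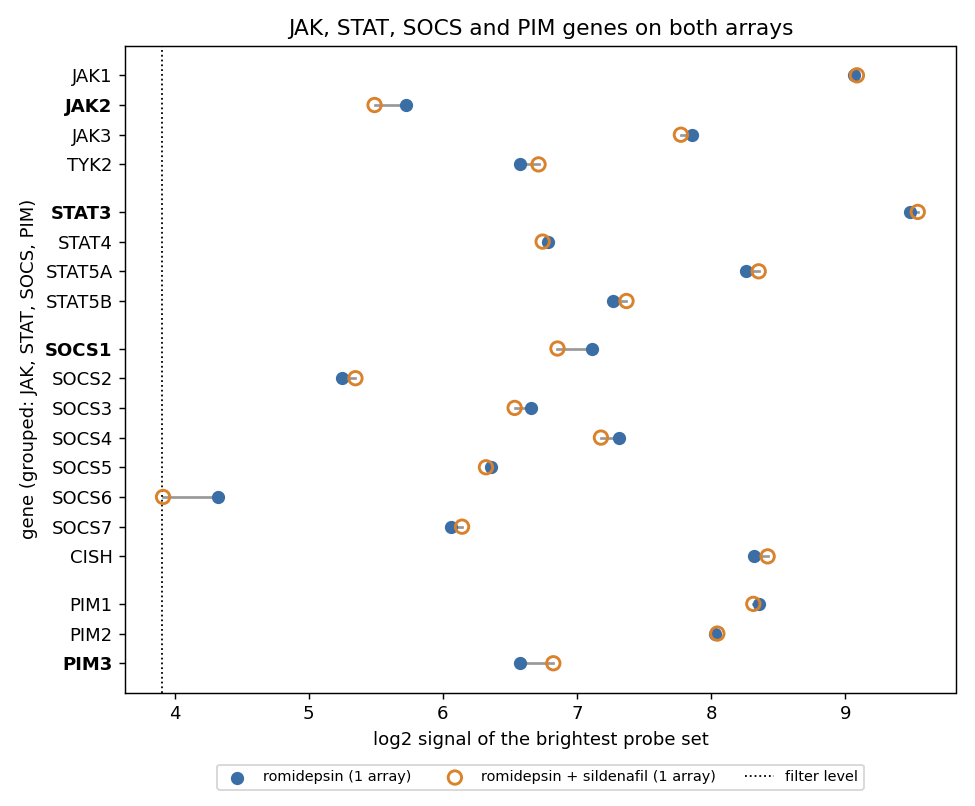
Log2 signal (x axis) of each annotated JAK, STAT, SOCS and PIM gene (y axis) on the romidepsin array (filled points) and the combination array (open points), with 1 array per group and no error bars; the dotted line is the filter level of 3.91. The points of a gene lie close together, and the widest gap is that of SOCS6, at 4.33 and 3.91; the order of genes along the axis also depends on the probes and is no order of abundance.

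JAK2, the kinase that serves the receptors of many cytokines and hormones, had a log2 signal of 5.73 with romidepsin alone and 5.49 with sildenafil added. The difference was -0.24. By signal it ranked 5385th of the 10081 genes, so 46.6% of them were dimmer. It stood 5167th on the romidepsin array and 5622nd on the combination array. Signals depend on probe affinity and transcript length as well as abundance, so such ranks place a probe set on the array and do not order the genes by transcript number. In this part of the range differences scattered widely: the 500 genes nearest in mean signal, between 5.49 and 5.73, had an SD of 0.21. Of these 500, 113 differed by at least as much as JAK2 in either direction, 73 of them also lower with sildenafil, and 7 were beyond 1.5-fold.

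The other JAK genes, all measured, differed by less than JAK2. JAK1, which works with JAK3 at the interleukin-2 receptor, was at 9.06 without and 9.09 with sildenafil, a difference of 0.03 that turned to -0.00 when the arrays were centred on their medians. JAK3, the partner of the shared gamma chain, was at 7.86 and 7.77, and its difference was -0.09. TYK2, which serves interferon and interleukin-12 receptors, was at 6.57 and 6.71, and its difference was 0.14. JAK2 was thus the JAK gene furthest apart between the arrays. The median of the 4 kinases was -0.03, and it lay between -0.06 and 0.03 over the alternatives. None of the 4 was beyond 1.5-fold.

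STAT3, the transcription factor downstream of interleukin-6, interleukin-10 and interleukin-21 receptors, had a log2 signal of 9.48 with romidepsin alone and 9.54 with sildenafil. The difference was 0.06. Its probe set was among the brightest named ones, 181st of 10081, with 98.2% of genes dimmer (204th on the romidepsin array and 174th on the combination array). The 500 genes nearest in signal, here spread from 8.66 to 10.36, had an SD of 0.12. Of these, 263 differed by at least as much as STAT3 in either direction, 89 of them also higher with sildenafil. The difference was 0.03 after median centring and 0.12 after quantile normalization, so its size depends on how the arrays are scaled, while its sign did not change.

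Of the other STAT genes, STAT4, STAT5A and STAT5B were annotated, and the rest are not analysed here. STAT5A and STAT5B, the factors that interleukin-2 engages most directly, were at 8.26 and 7.27 with romidepsin alone and at 8.35 and 7.37 with sildenafil. Their differences were 0.09 and 0.10. STAT4, a factor of interleukin-12 signalling, was at 6.78 and 6.74, a difference of -0.04 that became 0.02 under quantile normalization. The median of the 4 STAT genes was 0.08, and between 0.05 and 0.14 over the alternatives.

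SOCS1, which inhibits JAK kinases directly and marks them for degradation, had a log2 signal of 7.11 with romidepsin alone and 6.85 with sildenafil. Its difference of -0.26 was the largest of the 4 genes. By signal it ranked 2574th of 10081, with 74.5% of genes dimmer, and moved from 2380th on the romidepsin array to 2775th on the combination array. The 500 genes nearest in signal had an SD of 0.15, smaller than around JAK2. Of these, 38 differed by at least as much in either direction, 29 of them also lower with sildenafil, and 2 were beyond 1.5-fold. A difference of nearly equal size therefore stood further out for SOCS1 than for JAK2, at -1.70 against -1.12 times the SD of such genes. That SD describes different genes on 1 pair of arrays and is not a replicate error.

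All 8 genes of the SOCS family were annotated, and they did not share a direction. SOCS6, a member linked to receptor kinase turnover, was the furthest apart, at 4.33 without and 3.91 with sildenafil (-0.41), close to the filter level where scatter is widest. SOCS3, the feedback inhibitor of interleukin-6 signalling, was at 6.66 and 6.53 (-0.12). Its dimmer second probe set was at 5.45 and 5.16 (-0.29). SOCS4 was at 7.31 and 7.18 (-0.13) and SOCS5 at 6.36 and 6.32 (-0.04, or 0.01 after quantile normalization). CISH, a feedback inhibitor induced through STAT5, was at 8.32 and 8.42 (0.10). SOCS2, also a STAT5-induced inhibitor, was at 5.25 and 5.35 (0.10), and SOCS7 at 6.06 and 6.14 (0.08). In all 5 were lower and 3 higher, with a median of -0.08, and quantile normalization gave 4 higher. USP18, an inhibitor of interferon receptor signalling outside the family, was at 6.05 and 6.21 (0.15).

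The sequences upstream of SOCS1 and CISH are shown because both are feedback inhibitors of the same family and their differences had opposite signs, which was not tested. Each sequence is the 250 bases before the RefSeq start site in GRCh38.p14, on the gene's minus strand, at chr16:11256205-11256454 for SOCS1 and chr3:50611775-50612024 for CISH. Capitals mark matches to TTCNNNGAA, the core letters of a STAT site, which read the same on both strands, or to GAAANNGAAA, letters of an interferon response element, searched on both strands.
SOCS1: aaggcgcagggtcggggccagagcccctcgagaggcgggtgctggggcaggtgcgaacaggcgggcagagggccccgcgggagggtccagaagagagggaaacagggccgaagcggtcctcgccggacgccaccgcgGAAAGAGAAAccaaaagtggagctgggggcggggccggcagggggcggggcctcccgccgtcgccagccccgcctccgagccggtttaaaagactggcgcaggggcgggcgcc
CISH: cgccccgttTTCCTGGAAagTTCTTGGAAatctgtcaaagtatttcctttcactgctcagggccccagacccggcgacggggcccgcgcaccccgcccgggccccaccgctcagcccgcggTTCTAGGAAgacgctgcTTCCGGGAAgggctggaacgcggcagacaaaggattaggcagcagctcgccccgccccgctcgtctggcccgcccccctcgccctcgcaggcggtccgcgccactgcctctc
CISH held 4 matches to the STAT letters, between 241 and 104 bases before its start, and none to the interferon letters. SOCS1 held none of the former and 1 of the latter, GAAAGAGAAA, from 113 to 104 bases before its start. No 2 of these matches overlap. For comparison, 6.57% of 35116 RefSeq windows of 250 bases held the STAT letters and 3.02% the interferon letters. The upstream windows of STAT3 (1 start), PIM3 (1 start) and JAK2 (4 starts) held neither. Those of PIM1, PIM2 and SOCS3 were searched too and also held neither, and SOCS2 had no promoter entry. CISH was thus the only gene of this search with the STAT letters. A match is a run of letters and does not show that a factor binds there.

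Genes with and without those letters had nearly the same median difference. The 559 named genes past the filter with the STAT letters had a median difference of -0.02, against -0.01 for 7117 genes without them. The 247 genes with the interferon letters had a median of -0.04, against -0.01 for 7429 without. Beyond 1.5-fold were 1.07% of the genes with the STAT letters and 1.28% of those without, and 1.21% and 1.27% for the interferon letters. A further 2405 genes had no matching promoter entry. Of 69 pathway genes with a promoter entry, 3 held the STAT letters, against 7.28% of the 7676 named genes with an entry. They were CISH (0.10), BCL6 (-0.01) and CD274 (-0.08). The interferon letters were held by 6 of the 69, against 3.22% of the 7676. They were SOCS1 (-0.26), FOXO3 (-0.32), ZEB1 (-0.25) and CD274 (-0.08) on the lower side, and SGK1 (0.15) and IL18R1 (0.08) on the higher side.

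PIM3, a serine/threonine kinase that supports survival and protein synthesis downstream of STATs, had a log2 signal of 6.58 with romidepsin alone and 6.82 with sildenafil. The difference was 0.25, the only one of the 4 genes that was both positive and beyond 1.1-fold. It ranked 3123rd of 10081 by signal, with 69.0% of genes dimmer, and moved from 3418th on the romidepsin array to 2835th on the combination array. The 500 nearest genes had an SD of 0.15 and a median of -0.06. Of these, 64 differed by at least as much in either direction but only 14 were as far on the higher side, and 1 was beyond 1.5-fold. PIM3 sat just inside the central 95% of these genes, which ended at 0.25.

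The other PIM kinases, both well-known STAT5 targets, were nearly level. PIM1 was at 8.36 without and 8.31 with sildenafil, a difference of -0.05 that became 0.01 under quantile normalization. PIM2 was at 8.03 and 8.04, a difference of 0.02 that became -0.01 after median centring. PIM3 was therefore the furthest apart of the 3 PIM genes, whose median was 0.02.

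**Figure D2:**
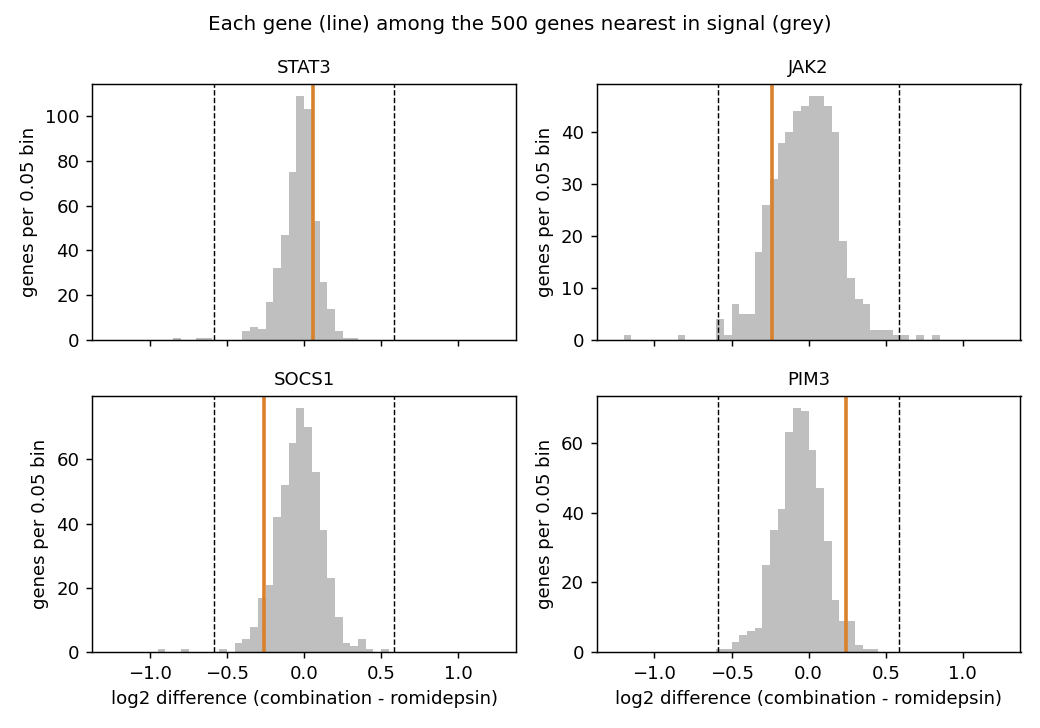
Histograms of the log2 difference (x axis; combination minus romidepsin) of the 500 named genes nearest in mean signal to each of the 4 genes (grey; y axis, genes per bin of 0.05), with the gene itself as an orange line and 1.5-fold as dashed lines; 1 array per group. STAT3 (0.06) lies a little above the upper quartile of its neighbours (0.03), and JAK2 (-0.24) on the shoulder of a wider distribution. SOCS1 (-0.26) and PIM3 (0.25) lie towards the edges of narrower ones.

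Ratios between the 4 genes depend less on how the arrays were brought to one scale. The widest gap was between PIM3 and SOCS1. Relative to PIM3, SOCS1 was 1.42-fold lower with sildenafil than without (-0.50 on the log2 scale, and -0.50 under quantile and lowess scaling). The other alternatives could not change such a ratio. Median centring shifts every gene alike, and the filters and the probe set rule leave these 4 genes unchanged. Relative to PIM3, JAK2 was 1.40-fold lower (-0.48, and down to -0.51 over the alternatives). SOCS1 and JAK2 kept to within 0.02 of each other. STAT3 was higher than SOCS1 by 0.31 and than JAK2 by 0.30 in its difference, and lower than PIM3 by 0.19. Such ratios show unequal change within 1 pair of arrays and do not say which gene of a pair changed.

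**Figure D3:**
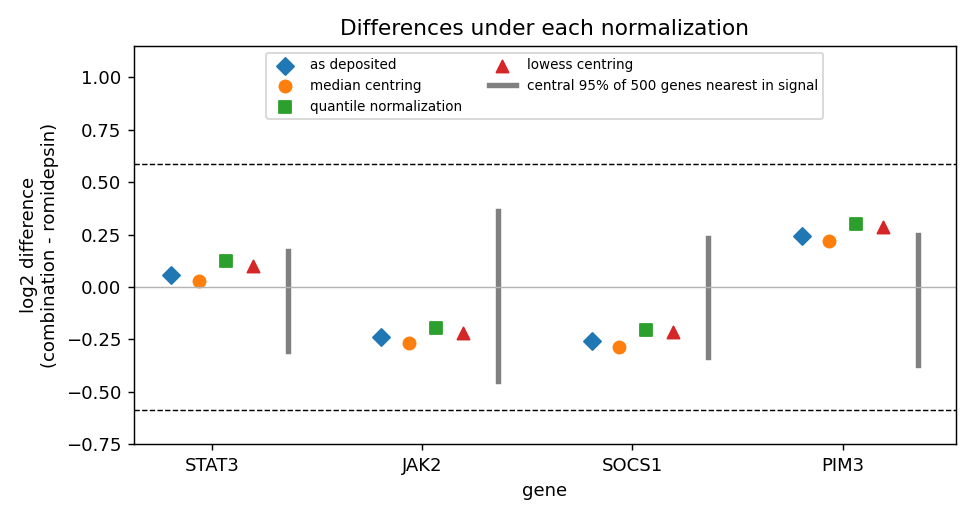
Log2 difference (y axis; combination minus romidepsin) of STAT3, JAK2, SOCS1 and PIM3 (x axis) as deposited and after median centring, quantile normalization and lowess centring (symbols), beside the central 95% of the 500 genes nearest in signal, as deposited (grey bars); dashed lines mark 1.5-fold, with 1 array per group. Each gene kept its sign under all 4 scalings, and STAT3 ran from 0.03 to 0.12.

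Over the JAK, STAT, SOCS and PIM families, 19 genes were annotated, and 14 of the 19 lay within 1.1-fold between the arrays. JAK2, SOCS1 and PIM3 were among the 5 that did not, and the others were SOCS6 and TYK2. Among all named genes past the filter 44.4% were at least 1.1-fold apart, without matching on signal. Of the 19, 10 were higher and 9 lower as deposited, while 13 were higher after quantile normalization and 8 after median centring. The genes whose sign turned were JAK1, STAT4, SOCS5, PIM1 and PIM2, all of them nearly level.

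The genes whose signals were most like those of the 4 were found by distance over the 2 arrays, which is little to judge by. Nearest to STAT3 were ANO6 (difference 0.03), XPO6 (0.03) and LOC100190986 (0.02). Nearest to JAK2 were TMEM256-PLSCR3 (-0.24), ERMARD (-0.22) and PEX2 (-0.26). Nearest to SOCS1 were TTL (-0.26), EXOSC9 (-0.28) and MFF (-0.28), and nearest to PIM3 were PRMT2 (0.25), NIT1 (0.22) and SEC23A (0.26). Every one of these 12 lay within a distance of 0.032 of its gene.

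Around the 4 genes, the rest of the pathway showed no member beyond 1.5-fold. In 10 lists 171 genes were named, 106 were annotated and 89 passed the filter, and 0 of the 89 were beyond 1.5-fold, against the 1.99% of all genes given above. At a smaller threshold of 0.32 on the log2 scale, 4 of the 89 (4.49%) were apart, against 12.7% of all genes. The pathway genes were brighter, with a median signal of 7.00 against 5.77, and bright genes scatter less, so these shares are not matched. By size SOCS1 came 13th, PIM3 15th and JAK2 19th of the 89.

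Of the ligands, 9 of 16 annotated genes passed the filter, with a median of -0.06. The largest differences were those of CSF3 (0.33), IL22 (-0.30), IL21 (-0.29), which signals through STAT3 in NK cells, and LIF (0.28), which lay below the filter level without sildenafil (3.86). The transcript of interleukin-2 itself was dim on both arrays (1.38 and 1.56), while the protein was supplied in the medium. Of the receptors, 10 of 17 passed, with IL9R at 0.18, IL4R at 0.16, IL21R at -0.13 and IFNGR1 at -0.11. The chains of the interleukin-2 and interleukin-15 receptors are not analysed here. Among 15 adaptors and branch kinases, SYK, a tyrosine kinase of immune receptors, was furthest apart (5.12 without and 4.68 with; -0.44). SOS2 (-0.30), SHC1 (0.29) and LCK (0.28) followed.

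Genes known as STAT3 and STAT5 targets centred on no difference. The median of 25 was 0.00, with 12 higher, 12 lower and 1 equal (18 higher under quantile normalization and 10 under median centring). CCND1, cyclin D1, was at 0.33 and HNRNPA1 at 0.32, while ZEB1 was at -0.25 and BCL2L1, the survival gene of BCL-XL, at -0.24. MYC was at 0.05, MCL1 at -0.06 and BCL6 at -0.01 (0.04 under quantile normalization). Of genes mutated or lost in NK/T-cell lymphoma 16 passed, with 8 higher as deposited and 4 after median centring. FOXO3 (-0.32) was the furthest apart but its second probe set was at -0.06. BCOR was at 0.18, MGA at -0.13 and HACE1 at -0.12.

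**Figure D4:**
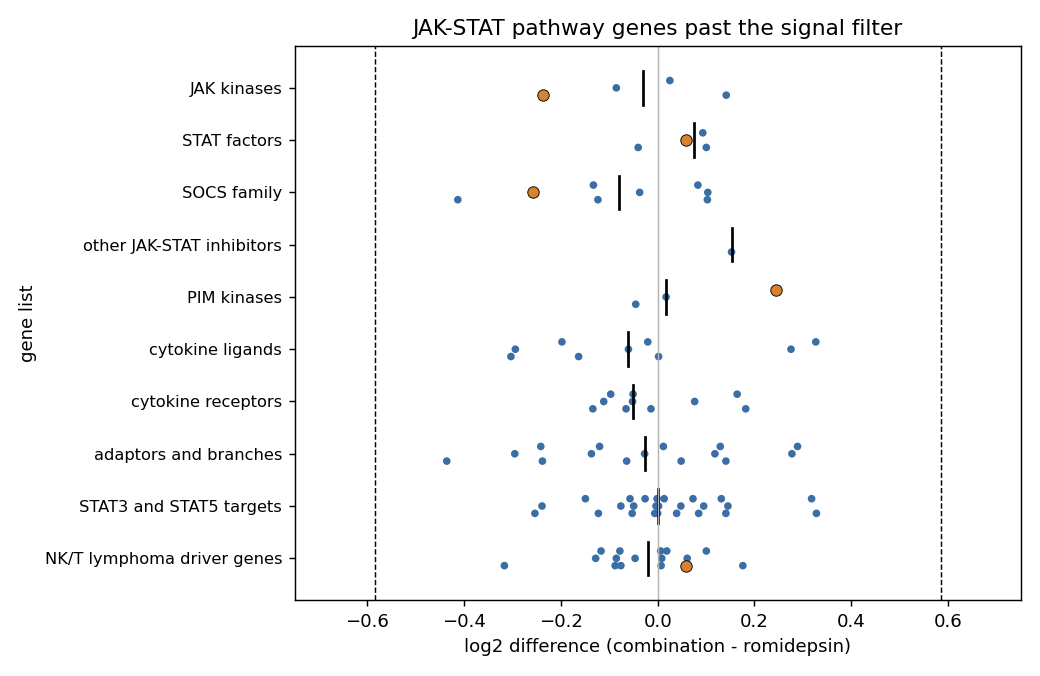
Log2 difference (x axis, combination minus romidepsin) of every gene past the filter in 10 pathway lists (y axis), with 1 array per group. Each list has 1 point per gene, and a gene named in several lists, such as STAT3, is drawn in each. STAT3, JAK2, SOCS1 and PIM3 are in orange, black bars are list medians and dashed lines mark 1.5-fold. No point reaches a dashed line, and SOCS1 and JAK2 lie to the left and PIM3 to the right of most genes of their families.

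Markers of the labelled cell type were above the filter level, and so were some of other cell types. Over all named genes 10081 of 14884 passed the filter, so passing alone does not set a cell type apart. Of 14 annotated NK cell markers 13 passed the filter, while EOMES did not. PRF1 (8.83 and 8.81), NKG7 (8.50 and 8.23) and NCAM1 (6.63 and 6.54) were among the brighter. Others were dim, near the level of the T cell markers below, such as TYROBP (4.23 and 4.33) and NCR3 (4.70 and 4.69). GNLY (3.82 and 3.92) was below the filter level on the romidepsin array. Among the 13 NK cell markers past the filter, 8 were higher with sildenafil and 5 lower. TBX21 (0.47) and NCR2 (0.38), both dim, were the furthest apart, and NKG7 was at -0.27. Of the T cell markers 5 of 7 passed, CD4, CD5, CD6, CD8A and CD8B, all between 4.03 and 4.52, while CD28 and TRAT1 did not. Of the monocyte and macrophage markers 6 of 10 passed, the highest being CD68 (6.72 and 6.61), while CD14 and LYZ were among those below. The B cell marker CD22 was at 7.46 and 7.37, 1 of 3 that passed of 4. Of the fibroblast and epithelial markers 3 of 4 passed. KRT18 was higher with sildenafil (7.04 and 7.38), while KRT8 (5.43 and 5.13) and KRT19 (4.13 and 3.86) were lower. The log2 of the summed linear signals of the markers past the filter was 10.63 without and 10.59 with sildenafil for NK cells and 6.61 and 6.63 for T cells. It was 7.96 and 7.87 for B cells and 7.77 and 7.73 for monocytes. For fibroblast and epithelial markers it was 7.59 and 7.76, the widest shift of the 5. That sum follows KRT18, the brightest of the 3, while the median difference of the 3 was -0.26. The part of the markers in the differences of the 4 genes was not tested. The table holds no detection calls, so a background level for these probe sets is unknown.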

How the data were processed

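Per the labels' protocols, RNA of the 2 samples was whole-transcript amplified, biotin-labelled and read on an expression array. The titles give the groups, and the abbreviated second drug is taken to be sildenafil, the other drug of the treatment protocol. The authors deposited log2 signals of 53617 probe sets. Base 2 was inferred since the deposited log2 values go up to 13.05, more than a natural log of 16-bit readings allows (11.1). How background, summarisation and normalization were handled is not stated in the labels. The column median was 3.89 for romidepsin and 3.92 for the combination, and sorted values differed by at most 0.15, so a change shared by most transcripts would not be seen.

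The platform annotation, which can be old, named 1 symbol for 16098 probe sets. The other 37519 had no symbol or several, which were not counted apart. All Entrez identifiers and symbols of the 16098 matched RefSeq. Where a gene had several probe sets (779 genes), the brightest by mean signal was used. Genes entered when the brighter array reached 3.91. Upstream sequences came from RefSeq (GRCh38.p14). No test between treatments was possible with 1 array per group; the number of arrays limits the precision.

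The 4 genes, the lists and the naming rule were chosen with earlier results of these data known, and the upstream search and the pairwise ratios after the values were seen. All annotated JAK, STAT, SOCS and PIM genes are named, and of each other list up to 4 genes with the largest difference, plus MYC, MCL1, BCL6 and BCL2L1; others named were chosen after their values were seen. Some listed items are not reported here. Alternatives changed the scaling (median, quantile, lowess with span 0.3), filter, probe set rule and fold threshold. Calls and neighbour selection were tested on simulated data. Python 3.11.15, numpy 2.4.6, pandas 2.3.3 and statsmodels 0.14.6 were used.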

Additional observations from a re-analysis of the deposited data

How the results depend on the processing

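STAT3, JAK2, SOCS1 and PIM3 kept their sign under the 3 other scalings, with ranges, as deposited included, of 0.03 to 0.12, -0.27 to -0.20, -0.29 to -0.20 and 0.22 to 0.30. Of 116 values recomputed under alternatives, 107 stayed within the spread set for them or, for counts, within 1.5 times, and 9 did not. Of the 107, at least 16 could not have differed, because each of the 4 genes has 1 probe set and a filter does not alter a gene's own difference. For single genes that spread was the SD of the 500 genes nearest in signal, and for list medians the SD of all genes over the square root of the list size, since no replicates exist. Median centring moved every difference by the same amount, smaller than any of these spreads, so it could hardly take a value outside them. The JAK, STAT and PIM medians could not move without a filter or under the other probe set rule. Their annotated genes all passed, each with 1 probe set. Under quantile normalization the medians of the STAT3 and STAT5 targets and of the lymphoma driver genes were 0.049 and 0.056. Without a filter, more dim genes entered: the receptor median was 0.10, 1 pathway gene (ASXL3, 0.72 from signals of 1.98 and 2.70) was beyond 1.5-fold, and 379 named genes were, against 201. A filter at the 75th percentile left 42. The count beyond 0.32 on the log2 scale was 4 pathway genes and 1283 named genes, and beyond 2-fold 18 named genes. Other probe sets of the 4 genes could not be tried. No paired analysis was possible because each group holds 1 array.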
